A study of Mus musculus with 15 samples.

Results

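The genes described here are 10 genes of Wnt signalling and of the primitive streak, Tcf7, Tcf7l1, Lef1, Axin2, Sp5, Cdx1, T, Eomes, Mixl1 and Fgf8. They were taken by gene symbol from a table of 32152 genes, and each symbol was found once. The table holds mouse embryonic stem cells of strain C57BL/6 in 5 groups of 3 samples. One group was a mock control, which the design text calls wild type. The others were kept for 48 hours with oligomycin (1 nM or 10 nM), which blocks ATP synthase in mitochondria, or with 2-deoxy-D-glucose (5 mM or 10 mM), a sugar analog that stops glycolysis early and is written 2-DG below. No duration is given for mock. The medium shared by the groups contained serum and leukemia inhibitory factor. The submitters describe the doses as low and high inhibition of oxidative phosphorylation or of glycolysis, and the comparisons below ask how far these genes differed from mock, between doses and between the agents.

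In canonical Wnt signalling a secreted Wnt ligand binds a Frizzled receptor and an Lrp co-receptor, which stops the destruction complex of Axin, Apc, Gsk3 and casein kinase 1 from marking beta-catenin for degradation. Beta-catenin then enters the nucleus and joins the DNA-binding proteins of the TCF/LEF family, encoded by Tcf7, Tcf7l1, Tcf7l2 and Lef1. In mouse embryonic stem cells Tcf7l1 is known mainly as a repressor, and Wnt activity relieves that repression and raises direct targets such as Axin2, Sp5 and Cdx1. In the embryo the same pathway, together with Nodal, starts the primitive streak, where T (brachyury), Eomes, Mixl1 and Fgf8 are switched on.

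Sequences before the start sites of these genes were searched for the core of the TCF/LEF binding motif. In the RefSeq table used (GRCm38.p6), Fgf8 and Mixl1 had no entries, and Cdx1 was left out of the search, so its window was not tested. The 7 of the 10 genes that were searched had 11 start sites. The letters CTTTGA or, on the other strand, TCAAAG were sought in the 250 bases before each start. A match was found for 3 of the 7 genes searched, Sp5, T and Lef1, where for Lef1 it lay before an internal start only. Of all 32851 RefSeq windows of that length, 13.8% held a match and 1.37% held more than 1. These shares are per window, while the count of 3 is per gene and Lef1 and Tcf7 had more than 1 window each. The count and the shares are therefore not like measures. The windows of Sp5, with 2 matches, and of T, with 1, are shown because they are the matches before the start of the whole gene. They were chosen after the search, and capitals mark the matches. The Sp5 window is chr2:70474673-70474922 on the plus strand, with matches that begin 204 and 104 bases before the start, and the T window is chr17:8434173-8434422 on the plus strand, with a match that begins 234 bases before it.
Sp5: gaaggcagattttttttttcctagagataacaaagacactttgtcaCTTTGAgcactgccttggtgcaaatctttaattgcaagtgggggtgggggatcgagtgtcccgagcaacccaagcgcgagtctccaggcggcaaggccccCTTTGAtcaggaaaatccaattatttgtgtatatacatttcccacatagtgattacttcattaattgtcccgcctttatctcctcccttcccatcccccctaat
T: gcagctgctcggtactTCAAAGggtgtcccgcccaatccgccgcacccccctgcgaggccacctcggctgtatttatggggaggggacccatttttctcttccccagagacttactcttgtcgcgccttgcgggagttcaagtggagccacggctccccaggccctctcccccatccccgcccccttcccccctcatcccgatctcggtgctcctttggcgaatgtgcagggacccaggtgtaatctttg
A match describes the letters only. The 2 genes differed under 2-DG, as given below, since T stood lower than in mock at both doses while Sp5 did not pass the test.

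Levels are FPKM, fragments scaled to exon length and to the size of the library, so that levels of different genes can be set side by side. Changes are differences of log2(FPKM + 1) with their standard error (SE), which understate the change of genes near or under 1 FPKM. Adjusted p-values come from limma's moderated test over the 13284 genes that reached 1 FPKM in at least 3 samples, with 0.05 as the threshold. How far the members could be judged differed. Tcf7 and Tcf7l1 were between 8.54 and 24.8 FPKM in every sample, with at least 437 reads. Axin2 (at least 111 reads), Eomes, Cdx1 and Sp5 (at least 23 reads) lay between 0.454 and 4.62 FPKM. Lef1 and Fgf8 passed the filter through the 3 mock samples alone, so that a tested value for them could hardly be other than lower with treatment. T reached 1 FPKM in 2 samples and Mixl1 in none of the 15, so neither was in the main test. These last 3 genes, Fgf8, T and Mixl1, were at 1 to 68 reads per sample, and differences between the treated groups are too low to judge for Fgf8 and Mixl1. Read numbers were worked out from the steps of the FPKM values, and a second test on those reads (limma's voom, 14869 genes with at least 10 reads in at least 3 samples, chosen after the data were seen) covered T and Mixl1. Fgf8 passed that filter through the 3 mock samples alone, and Mixl1 through these and 1 treated sample, so lower values with treatment are largely built in there too, while T had 10 reads in 10 samples.

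Depth, worked out from the same steps, was 17442270 to 19245080 reads per sample. Replicate 1 of 10 nM oligomycin stood apart from its group: its squared differences in reads from replicates 2 and 3 were 28.6 and 20.3 times the counting variance (chi-square per degree of freedom), against 2.16 to 8.66 between replicates elsewhere. The stem cell label was borne out in part. Pou5f1, Sox2 and Nanog, transcription factors that define these cells, were at 122 ± 11.6, 171 ± 8.29 and 196 ± 5.04 FPKM in mock (SD, n = 3). Fibroblast genes were abundant in the same samples, with the collagen gene Col1a1 at 426 ± 7.56 and the smooth muscle actin gene Acta2 at 577 ± 10.3 FPKM, and no feeder layer is named in the labels. The origin of the replicates (cultures, passages or wells) is not given, so p-values measure the spread between these samples, which may be technical. In such bulk RNA, fewer cells of a type and less RNA per cell cannot be told apart.

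Most of the 10 genes stood lower with either agent than in mock. With 1 nM oligomycin 7 of the 8 tested members fell, while 33.2% of all tested genes were called lower. With 10 nM all 8 fell, against 41.7% of all genes. With 5 mM 2-DG 5 fell and Tcf7l1 rose, against 20.3% lower and 15.0% higher among all genes, and with 10 mM 5 fell, against 26.8%. The median change of the 8 tested members was -0.73 and -0.95 with the oligomycin doses and -0.58 and -0.77 with the 2-DG doses, while the median of all tested genes was between -0.08 and -0.02. Since Lef1 and Fgf8 entered through their mock values, these counts and medians describe the set and support nothing by themselves. Called in either direction were 63.0%, 75.8%, 35.3% and 48.2% of all tested genes in the 4 comparisons, and 29.8%, 34.0% and 21.4% were called higher with 1 nM, 10 nM and 10 mM. By overlap of samples, which could be read for all 10 genes, 9 lay wholly below mock with 1 nM oligomycin (36.3% of all tested genes did, and 32.9% lay wholly above), and 10 with 10 nM (41.3% below, 33.5% above). With 5 mM 2-DG 7 lay wholly below and Tcf7l1 above (28.3% and 22.4% of all genes), and likewise 7 and Tcf7l1 with 10 mM (32.3% and 26.5%). T and Mixl1 were among the genes wholly below mock in each of the 4 groups.

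**Figure D1:**
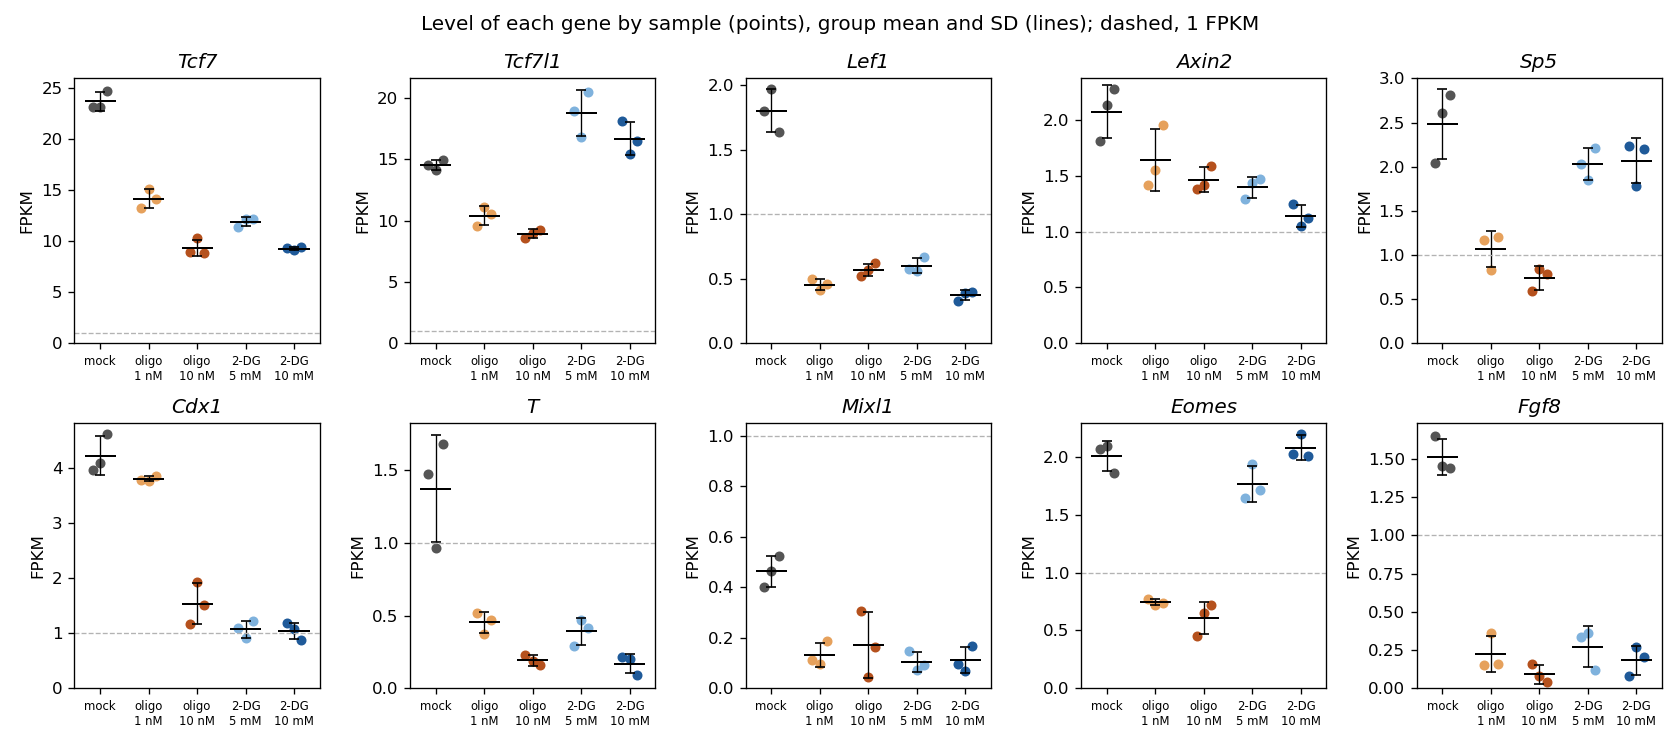
FPKM (vertical axis, linear, a scale of its own for each gene) of the 10 genes in the 15 samples; points are samples, horizontal lines group means, bars 1 SD (n = 3), and the dashed line is 1 FPKM. Tcf7 and Lef1 were highest in the mock samples, Tcf7l1 was highest with 5 mM 2-DG, and Eomes and Sp5 were low in the oligomycin samples.

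Tcf7 (ENSMUSG00000000782, chromosome 11, 52252371 to 52283014, minus strand, GRCm38), which encodes TCF1, a TCF/LEF factor that mostly activates Wnt targets together with beta-catenin, fell in all 4 treated groups. Its levels were 23.2, 23.2 and 24.8 FPKM in mock, 13.3, 15.1 and 14.2 with 1 nM oligomycin, 8.97, 10.3 and 8.91 with 10 nM, 11.4, 12.2 and 12.2 with 5 mM 2-DG, and 9.31, 9.15 and 9.43 with 10 mM. No treated sample reached the lowest mock sample. The change from mock was -0.70 ± 0.06 (SE, adjusted p = 2.4e-07) and -1.25 ± 0.06 (adjusted p = 2.1e-10) with the oligomycin doses, and -0.94 ± 0.06 (adjusted p = 9.2e-08) and -1.26 ± 0.06 (adjusted p = 2.2e-09) with the 2-DG doses. Tcf7 also fell with dose for both agents. The step from 1 to 10 nM was -0.55 ± 0.06 (adjusted p = 7.1e-06), and the step from 5 to 10 mM was -0.33 ± 0.06 (adjusted p = 0.0062). From the top, the order of the groups was mock, 1 nM oligomycin, 5 mM 2-DG, and then 10 nM oligomycin and 10 mM 2-DG, which did not differ (-0.01 ± 0.06, adjusted p = 0.89). Its fall at 5 and 10 mM 2-DG was among the steepest of all tested genes, as 0.821% and 0.542% of them were at or below its value, against 6.17% and 4.74% with the oligomycin doses.

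Tcf7l1 (ENSMUSG00000055799, chromosome 6, 72626378 to 72789254, minus strand), which encodes TCF3, the family's repressor in these cells, went in opposite directions under the agents. It was at 14.5, 14.1 and 14.9 FPKM in mock, 9.56, 11.1 and 10.5 with 1 nM oligomycin, 8.54, 8.98 and 9.24 with 10 nM, 18.9, 16.8 and 20.5 with 5 mM 2-DG, and 18.1, 15.4 and 16.5 with 10 mM. Every oligomycin sample lay below the mock samples and every 2-DG sample above them. It fell by 0.45 ± 0.07 and 0.65 ± 0.07 with oligomycin (adjusted p = 1.3e-04 and 2.1e-06) and rose by 0.34 ± 0.07 with 5 mM 2-DG (adjusted p = 0.0029). At 10 mM the difference of 0.18 ± 0.07 missed the threshold (adjusted p = 0.058, and 0.025 to 0.22 over the alternatives). It passed without 5 mM 2-DG replicates 2 (adjusted p = 0.037) or 3 (0.045) or without 10 mM replicate 2 (0.23, adjusted p = 0.035), and also under quantile normalization (0.19, adjusted p = 0.039), median ratio scaling (0.22, adjusted p = 0.025) and in a fit of the compared groups alone (0.18, adjusted p = 0.043). The difference between agents was 0.83 ± 0.07 at the higher doses (adjusted p = 2e-07). At the lower doses it was 0.79 ± 0.07 (adjusted p = 6.2e-07, a comparison added after the data were seen). In order, 5 and 10 mM 2-DG did not differ (-0.16 ± 0.07, adjusted p = 0.24), mock followed, and the oligomycin groups came last. The step from 1 to 10 nM was weak, at -0.20 ± 0.07 (adjusted p = 0.043). That call was lost without any of mock replicates 1, 2 and 3, 1 nM replicates 2 and 3, 10 nM replicates 1, 2 and 3, 5 mM replicate 1 or 10 mM replicate 3, with values of -0.22 to -0.15. It was also lost with no filter (adjusted p = 0.096), quantile normalization (0.13), median ratio scaling (0.11), a fit of the compared groups alone (0.064) and the reads test (0.05), 15 of 24 alternatives in all.

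Lef1 (ENSMUSG00000027985, chromosome 3, 131110471 to 131224356, plus strand) encodes a TCF/LEF factor that is itself a Wnt target, and it stood lower in all treated groups. Its levels were 1.8, 1.97 and 1.64 FPKM in mock, and in the treated samples they ran from 0.329 (10 mM 2-DG) to 0.669 (5 mM 2-DG), with 52 to 110 reads each. The group means were 0.455 ± 0.043 and 0.57 ± 0.0491 with 1 and 10 nM oligomycin and 0.601 ± 0.0586 and 0.373 ± 0.0386 FPKM with 5 and 10 mM 2-DG (SD, n = 3). By reads summed over 3 samples these were 0.253, 0.316, 0.334 and 0.207 times mock, and the widest 95% counting interval ran from 0.291 to 0.382. On the log2(FPKM + 1) scale the changes were -0.94, -0.83, -0.81 and -1.03, each ± 0.07 (adjusted p at most 2.4e-06). These are given as a description, because Lef1 passed the FPKM filter through mock alone. It had at least 10 reads in all 15 samples, and the reads test gave -1.98, -1.66, -1.58 and -2.26 (adjusted p at most 6e-09). Among the treated groups no neighbours in the order 5 mM 2-DG, 10 nM, 1 nM, 10 mM 2-DG differed by the FPKM test (adjusted p = 0.73, 0.24 and 0.35). The reads test called the step from 5 to 10 mM lower (-0.68, adjusted p = 0.016), where the FPKM test gave -0.22 ± 0.07 (adjusted p = 0.095). A gene on the opposite strand, Gm43352, overlaps 13.7% of the exon bases of Lef1. Whether counting used strand is not given in the sources used here, and Gm43352 itself was at 0.0298 FPKM or less in every group mean. Opposite-strand genes also overlap 3.8% of the exon bases of Axin2 (Gm11670) and 4.6% of those of Tcf7l1 (Gm15401). They were at 0.073 and 0.16 FPKM or less in every group mean, and the overlap with Eomes is given below.

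Axin2 (ENSMUSG00000000142, chromosome 11, 108920349 to 108950783, plus strand) encodes a scaffold of the destruction complex and is the usual reporter of canonical Wnt activity, since it is both a target and an inhibitor. It was at 1.81, 2.13 and 2.27 FPKM in mock, 1.42, 1.55 and 1.95 with 1 nM oligomycin, 1.38, 1.42 and 1.59 with 10 nM, 1.29, 1.43 and 1.47 with 5 mM 2-DG, and 1.25, 1.05 and 1.12 with 10 mM. Only the 1 nM group overlapped mock. The falls were small next to those of Lef1 and Tcf7: -0.32 ± 0.09 (adjusted p = 0.0038) with 10 nM oligomycin, -0.36 ± 0.09 (adjusted p = 0.0054) with 5 mM and -0.52 ± 0.09 (adjusted p = 2.1e-04) with 10 mM 2-DG. With 1 nM oligomycin the value of -0.22 ± 0.09 (adjusted p = 0.036) was close to the threshold. The call was lost without mock replicate 2 (-0.21, adjusted p = 0.095), mock replicate 3 (-0.17, adjusted p = 0.13), 1 nM replicate 1 (-0.16, adjusted p = 0.15) or 1 nM replicate 2 (-0.20, adjusted p = 0.1), and also with no filter (adjusted p = 0.082), median ratio scaling (0.057) and a fit of the compared groups alone (0.086). The group means ran in the order mock, 1 nM, 10 nM, 5 mM 2-DG, 10 mM 2-DG, and the neighbours after mock did not differ by the test (adjusted p = 0.38, 0.7 and 0.29).

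Sp5 (ENSMUSG00000075304, chromosome 2, 70474923 to 70477729, plus strand), a zinc finger factor and direct Wnt target whose upstream window is printed above, fell with oligomycin and did not pass the test with 2-DG. Its levels were 2.04, 2.61 and 2.81 FPKM in mock, 1.17, 0.832 and 1.21 with 1 nM oligomycin, 0.59, 0.845 and 0.788 with 10 nM, 2.03, 1.85 and 2.21 with 5 mM 2-DG, and 2.23, 1.78 and 2.2 with 10 mM. The oligomycin samples lay below all mock samples, while both 2-DG groups overlapped mock. The changes were -0.75 ± 0.10 (adjusted p = 2.8e-05) and -1.0 ± 0.10 (adjusted p = 8.1e-07) with oligomycin, and -0.20 ± 0.10 and -0.18 ± 0.10 (adjusted p = 0.17 for both) with 2-DG. Summed reads were 0.82 and 0.832 times mock with 2-DG, with 95% counting intervals of 0.686 to 0.979 and 0.697 to 0.992 that end just under 1. From the top the order was mock, 10 mM and 5 mM 2-DG, 1 nM and 10 nM oligomycin. The neighbours that differed were 5 mM 2-DG and 1 nM oligomycin (0.55 ± 0.10, adjusted p = 3.8e-04). The step from 1 to 10 nM (-0.25 ± 0.10, adjusted p = 0.067) passed without mock replicate 1 (-0.25, adjusted p = 0.048) or 1 nM replicate 2 (-0.33, adjusted p = 0.027), and with a pseudocount of 0.1 (-0.47, adjusted p = 0.035) or 0.01 (-0.52, adjusted p = 0.031).

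Cdx1 (ENSMUSG00000024619, chromosome 18, 61018862 to 61036199, minus strand) encodes a caudal-type homeobox factor and a Wnt target of the posterior streak. It fell steeply at both 2-DG doses and at 10 nM oligomycin and did not pass the test at 1 nM. It was at 3.96, 4.09 and 4.62 FPKM in mock, 3.78, 3.77 and 3.86 with 1 nM oligomycin, 1.17, 1.93 and 1.52 with 10 nM, 1.09, 0.906 and 1.22 with 5 mM 2-DG, and 1.18, 1.07 and 0.88 with 10 mM. The 1 nM samples lay just below the mock samples, and the other treated samples were under 2 FPKM. The change was -0.12 ± 0.10 (adjusted p = 0.32) with 1 nM and -1.05 ± 0.10 (adjusted p = 3.1e-07) with 10 nM. It was -1.33 ± 0.10 (adjusted p = 4.5e-07) with 5 mM and -1.36 ± 0.10 (adjusted p = 1.7e-07) with 10 mM 2-DG, values that 0.211% and 0.429% of all tested genes matched or went below. Between the 2-DG doses the difference was -0.02 ± 0.10 (adjusted p = 0.94), and the ratio of summed reads was 0.97 with a 95% counting interval of 0.73 to 1.29. The step from 1 to 10 nM oligomycin was -0.93 ± 0.10 (adjusted p = 7.1e-06), and the difference between 5 mM 2-DG and 1 nM oligomycin was -1.21 ± 0.10 (adjusted p = 1.8e-07).

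**Figure D2:**
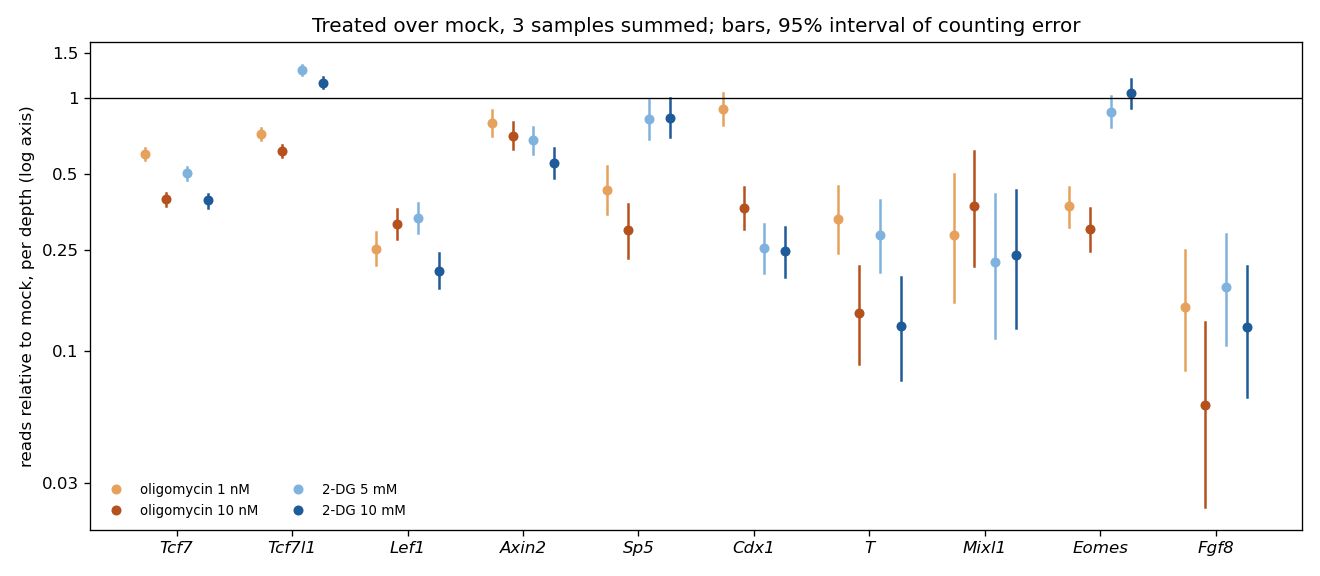
Reads of each gene relative to mock at equal depth (vertical axis, log scale) in the 4 treated groups, 3 samples summed; bars are 95% intervals of counting error only, and the line at 1 is mock. Eomes and Sp5 were well below 1 with oligomycin and near 1 with 2-DG, Tcf7l1 was on either side of 1, and the intervals of T, Mixl1 and Fgf8 were wide, with summed reads as low as 22, 13 and 7.

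Eomes (ENSMUSG00000032446, chromosome 9, 118478212 to 118486132, plus strand), a T-box factor of the anterior streak and definitive endoderm, was low with oligomycin and near its mock level with 2-DG. It was at 2.07, 2.09 and 1.86 FPKM in mock, 0.77, 0.723 and 0.741 with 1 nM oligomycin, 0.454, 0.647 and 0.719 with 10 nM, 1.64, 1.94 and 1.71 with 5 mM 2-DG, and 2.02, 2.2 and 2.01 with 10 mM. All 6 oligomycin samples were under 1 FPKM, and both 2-DG groups overlapped mock. It fell by 0.79 ± 0.08 (adjusted p = 7.7e-07) and 0.91 ± 0.08 (adjusted p = 6.5e-08) with oligomycin. With 2-DG the differences of -0.12 ± 0.08 (adjusted p = 0.22) and 0.03 ± 0.08 (adjusted p = 0.74) did not pass. The ratio of summed reads to mock was 0.876 (95% counting interval 0.764 to 1.01) with 5 mM and 1.04 (0.909 to 1.18) with 10 mM. In the order 10 mM 2-DG, mock, 5 mM 2-DG, 1 nM, 10 nM, only the third and the fourth group differed from each other as neighbours (0.66 ± 0.08, adjusted p = 3.7e-06). Gm33460, on the opposite strand, overlaps 2.8% of the exon bases of Eomes. It was at 0.796 ± 0.0987 FPKM in mock, 0.367 ± 0.0566 and 0.433 ± 0.25 with oligomycin, and 0.514 ± 0.276 and 0.908 ± 0.0775 with 2-DG (SD, n = 3). The part of Gm33460 in the Eomes reads was not tested.

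T (ENSMUSG00000062327, chromosome 17, 8434423 to 8442496, plus strand), brachyury, the T-box factor that marks the streak and nascent mesoderm, was low in mock and lower in every treated group. Its levels were 1.47, 0.967 and 1.68 FPKM in mock (63, 40 and 68 reads), 0.521, 0.377 and 0.467 with 1 nM oligomycin, 0.233, 0.186 and 0.161 with 10 nM, 0.291, 0.473 and 0.415 with 5 mM 2-DG, and 0.216, 0.202 and 0.0951 with 10 mM. No group overlapped mock, and for each agent the higher dose lay below the lower dose. Summed reads were 171 in mock against 59, 25, 50 and 22, which is 0.332 (95% counting interval 0.243 to 0.449), 0.141 (0.0885 to 0.215), 0.287 (0.205 to 0.395) and 0.125 (0.0763 to 0.195) times mock. In the reads test the log2 changes were -1.54 ± 0.28, -2.74 ± 0.36, -1.76 ± 0.29 and -2.96 ± 0.38, with adjusted p from 9.5e-05 down to 7.7e-07. The same test gave -1.19 ± 0.40 (adjusted p = 0.022) for the step from 1 to 10 nM and -1.20 ± 0.43 (adjusted p = 0.12) for the step from 5 to 10 mM. On the FPKM scale with no filter on low genes the changes from mock were -0.70, -0.98, -0.76 and -1.01, each ± 0.10 (adjusted p at most 2.7e-04).

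Mixl1 (ENSMUSG00000026497, chromosome 1, 180693043 to 180697034, minus strand), a homeobox gene of streak mesendoderm, was the lowest of the 10 genes in mock. It was at 0.402, 0.463 and 0.525 FPKM there, from 17, 19 and 21 reads, and at 0.0469 to 0.305 FPKM in the treated samples, from 2 to 13 reads. The treated samples did not overlap mock. Summed reads were 57 in mock against 17, 22, 13 and 14, and the ratios of 0.287, 0.371, 0.224 and 0.238 had 95% counting intervals within 0.112 to 0.617. In the reads test the log2 changes were -1.76 ± 0.46, -1.67 ± 0.45, -2.08 ± 0.49 and -2.03 ± 0.49 (adjusted p = 0.0028, 0.0026, 0.0027 and 0.0019), which are given as a description because the filter let Mixl1 in through mock. On the FPKM scale with no filter on low genes they were -0.37, -0.33, -0.41 and -0.40, each ± 0.07 (adjusted p = 0.0013, 0.0022, 0.0017 and 0.0012). No order among the treated groups was detectable at this depth, since the reads test gave adjusted p of 0.53 to 0.98 between them.

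Fgf8 (ENSMUSG00000025219, chromosome 19, 45736798 to 45742915, minus strand) encodes a secreted growth factor that streak cells need to migrate. It had the lowest remaining share of its mock level among the 8 tested members, a rank that the filter favoured because Fgf8 passed it through mock alone. It was at 1.65, 1.45 and 1.44 FPKM in mock (41, 35 and 34 reads), 0.155, 0.364 and 0.16 with 1 nM oligomycin, 0.16, 0.0796 and 0.0395 with 10 nM, 0.333, 0.365 and 0.119 with 5 mM 2-DG, and 0.0824, 0.269 and 0.204 with 10 mM. Each treated sample held 1 to 9 reads, and none was near mock. The ratios of summed reads to mock were 0.149 (95% counting interval 0.0836 to 0.249) and 0.0612 (0.024 to 0.13) with oligomycin, and 0.178 (0.105 to 0.289) and 0.124 (0.0654 to 0.216) with 2-DG. The log2(FPKM + 1) changes of -1.04, -1.20, -0.99 and -1.09, each ± 0.11 (adjusted p at most 1.1e-05), understate these ratios, and the reads test gave -2.75, -3.91, -2.54 and -3.02. All these changes are given as a description, because Fgf8 passed the filters of both tests through mock alone. No pair of neighbouring treated groups differed by the FPKM test (adjusted p from 0.35 to 0.72).

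Between the doses of an agent, the members called were these. From 1 to 10 nM oligomycin, Cdx1 and Tcf7 fell and so, by the weak call described above, did Tcf7l1, 3 of 8 (2 with no filter, median ratio scaling or the compared groups alone, and 4, with Sp5, at a pseudocount of 0.1), while 27.6% of all tested genes were lower, 18.7% higher and 46.4% called in either direction. Under quantile normalization the split of all genes in this step changed from 2489 higher and 3672 lower to 3347 and 3042, and of the members 2 were then lower, without Tcf7l1, and Lef1 was called higher (0.26, adjusted p = 0.0087, against 0.11 ± 0.07 and adjusted p = 0.24). From 5 to 10 mM 2-DG, Tcf7 was the 1 tested member that fell, against 2.45% of all genes lower, 3.41% higher and 5.86% in either direction. That last share rested on few calls and ran from 2.06% (273 genes, without 10 mM replicate 2) to 11% (1467 genes, without 10 nM oligomycin replicate 1). It was 2.58% to 3.53% when any other single 2-DG sample was left out, and Tcf7 was called each time. For Eomes the 10 mM samples lay above the 5 mM samples without passing the test (0.16 ± 0.08, adjusted p = 0.25).

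Set directly against each other, the agents differed at both dose levels for Eomes, Sp5 and Tcf7l1, which were higher with 2-DG. Cdx1 was called lower with 2-DG at both levels, but at the higher doses its samples overlapped and the call was fragile, as given below. At the higher doses the first 3 were higher with 2-DG, as were 37.7% of all tested genes (70.8% were called in either direction), by 0.94 ± 0.08 (adjusted p = 5.7e-08), 0.82 ± 0.10 (adjusted p = 7.7e-06) and 0.83 ± 0.07. At the lower doses the 3 were also higher, against 30.9% of all genes (63.3% in either direction), and Eomes differed by 0.66 and Sp5 by 0.55. Both comparisons with mock share the mock samples, but these differences do not use them other than for the common spread. The doses of different agents are not matched in any measured effect, and the inhibition reached was not measured here. Cdx1 and Tcf7 were lower with 5 mM 2-DG than with 1 nM oligomycin, against 32.3% of all genes, with -0.23 ± 0.06 (adjusted p = 0.0037) for Tcf7. Eomes, Sp5 and Tcf7l1 were also higher with 5 mM 2-DG than with 10 nM oligomycin, together with Tcf7 (0.32 ± 0.06, adjusted p = 2.3e-04), while Cdx1 was lower (-0.29 ± 0.10, adjusted p = 0.019), beside 39.1% of all genes higher, 35.3% lower and 74.4% in either direction. With 10 mM 2-DG against 1 nM oligomycin they were again higher, and Axin2, Cdx1 and Tcf7 were lower, beside 28.3% of all genes higher, 29.5% lower and 57.9% in either direction. Cdx1 showed the widest gap there, at -1.24 ± 0.10 (adjusted p = 2e-07).

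The 3 members Cdx1, Lef1 and Axin2 were lower with 10 mM 2-DG than with 10 nM oligomycin, against 33.2% of all genes, by small amounts close to the threshold. None of the 3 was called in a fit of these 2 groups alone (adjusted p = 0.062, 0.1 and 0.064), and Axin2 was also lost with no filter (0.099) and quantile normalization (0.059). Cdx1, at -0.31 ± 0.10 (adjusted p = 0.014), was lost without 10 nM replicate 2 (-0.20, adjusted p = 0.076) or 10 mM replicate 3 (-0.25, adjusted p = 0.061). Lef1, at -0.19 ± 0.07 (adjusted p = 0.03), was lost without 10 nM replicates 2 (adjusted p = 0.061) or 3 (0.092) or 10 mM replicates 1 (0.085) or 2 (0.051), with values of -0.20 to -0.17. Axin2, at -0.20 ± 0.09 (adjusted p = 0.047), was lost without mock replicate 2, 1 nM replicate 2, any replicate of 10 nM, any of 5 mM, or 10 mM replicates 2 or 3, with values of -0.23 to -0.17 and adjusted p up to 0.15. Eomes, Sp5 and Tcf7l1 were called in the fit of these 2 groups alone.

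**Figure D3:**
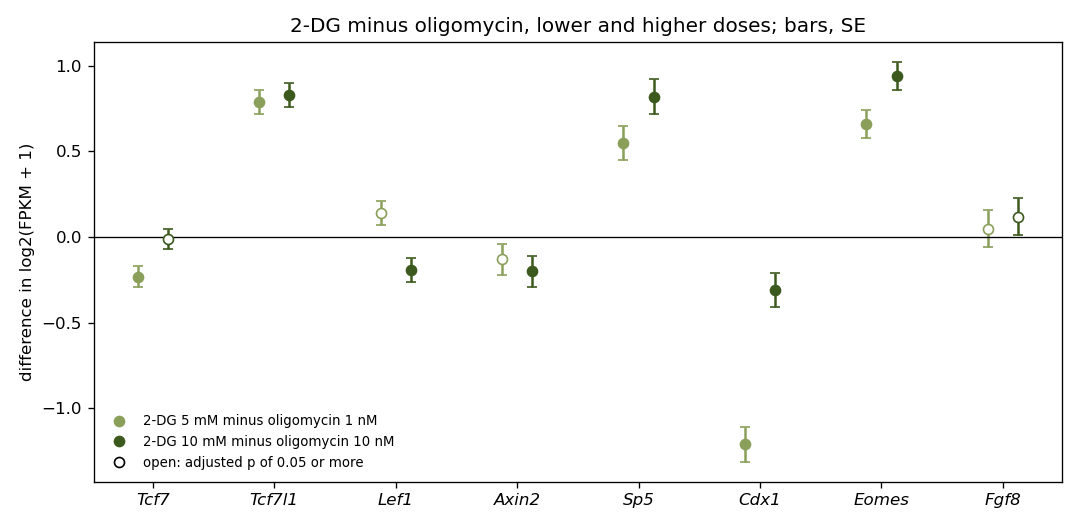
Difference of 2-DG minus oligomycin in log2(FPKM + 1) (vertical axis) for the 8 tested genes at the lower and the higher doses; bars are SE, and open points did not pass the test. Tcf7l1, Sp5 and Eomes were above 0 at both dose levels, and Cdx1 was far below 0 at the lower doses (-1.21) and closer to it at the higher (-0.31).

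Other genes of the pathway were counted in lists by role, and they did not share 1 direction. Of all tested genes 29.8% rose and 33.2% fell with 1 nM oligomycin, and 34.0% and 41.7% with 10 nM. With 2-DG the shares were 15.0% and 20.3% at 5 mM and 21.4% and 26.8% at 10 mM. All list counts below stand beside these shares and cover only genes that passed the filter, and no list was tested. A mix of directions was found among all genes too. Of 13 tested ligand and secretion genes, 7 rose and 3 fell with 1 nM oligomycin, 7 and 4 with 10 nM, 3 and 3 with 5 mM 2-DG and 3 and 4 with 10 mM. Wnt8a, a ligand of the streak, fell most, from 4.37 ± 0.254 FPKM in mock to 0.563 ± 0.247 and 0.338 ± 0.202 with oligomycin and 0.461 ± 0.0774 and 0.245 ± 0.149 with 2-DG (changes of -1.79, -2.01, -1.88 and -2.12, each ± 0.13, adjusted p at most 2.4e-07). By these means and SDs every treated sample lay under 1 FPKM, so Wnt8a passed the filter through the mock samples alone. Lower values with treatment were therefore largely built in for Wnt8a, as for Lef1 and Fgf8. Wnt3, the ligand that starts the streak in the mouse, fell from 1.52 ± 0.082 to 0.562 ± 0.121 and 0.484 ± 0.174 FPKM with 2-DG (-0.69 and -0.77, each ± 0.09, adjusted p = 8.1e-05 and 1.7e-05). With oligomycin Wnt3 changed by -0.19 ± 0.09 (adjusted p = 0.09) at 1 nM and -0.26 ± 0.09 (adjusted p = 0.024) at 10 nM. Wls, the carrier that takes Wnt proteins to the cell surface, rose with both agents, by 0.93 and 1.33 with oligomycin and by 0.29 and 0.62 with 2-DG, each ± 0.06. Wnt9a, another ligand, rose by 0.98 and 1.22 with oligomycin and fell by 0.28 and 0.41 with 2-DG, each ± 0.07. Wnt4, at 1.08 FPKM in mock, rose in all 4 groups, by 0.44, 0.82, 0.42 and 0.24, each ± 0.09. Porcn, the enzyme that adds a lipid to Wnt proteins, fell by 0.27 and 0.59, each ± 0.08, with oligomycin, while its 2-DG values of -0.10 and -0.15 did not pass (adjusted p = 0.35 and 0.12).

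Of 18 tested receptor genes 7 rose and 5 fell with 1 nM oligomycin, 8 and 7 with 10 nM, 4 and 5 with 5 mM 2-DG, and 5 and 9 with 10 mM. Fzd5, a Frizzled receptor, was at 8.95 ± 0.343 FPKM in mock, 6.57 ± 0.474 and 3.33 ± 0.0818 with oligomycin, and 12.8 ± 0.243 and 13.1 ± 0.288 with 2-DG, all called. Lgr4, a receptor for R-spondins, fell by 0.81 and 1.29 with oligomycin and by 0.21 with 10 mM 2-DG, each ± 0.06. Fzd10 fell by 0.86 and 1.12 with oligomycin and by 0.18 with 10 mM 2-DG, each ± 0.07. Ptk7, a co-receptor of planar polarity signalling, and Lgr6, a relative of Lgr4, rose with oligomycin (0.51 and 0.74, and 0.46 and 0.64) and fell with 2-DG (-0.35 and -0.33, and -0.55 and -0.45). Other Frizzled genes kept 1 direction, as Fzd1 rose (0.32, 0.75, 0.48 and 0.49) and Fzd9 fell (-0.32, -0.70, -0.47 and -0.67) in the 4 groups. Ror1, a receptor for Wnt5a, rose with 2-DG (0.53 and 0.36, each ± 0.08) and did not pass with oligomycin (adjusted p = 0.99 and 0.054). Of 14 genes of signal transduction and the destruction complex, 4 rose and 3 fell with 1 nM and 5 and 6 with 10 nM, while 13 and 11 of the 14 were not called with 5 and 10 mM 2-DG. Ctnnb1, the beta-catenin gene, was at 102 ± 0.608 FPKM in mock, fell by 0.28 ± 0.04 and 0.19 ± 0.04 with oligomycin, and did not pass with 2-DG (0.02 and -0.03, each ± 0.04, adjusted p = 0.76 and 0.53). Gsk3b, the kinase that marks beta-catenin, rose by 0.28 and 0.44 with oligomycin and by 0.26 with 10 mM 2-DG, each ± 0.07. The scaffold genes Apc and Axin1 fell with 10 nM oligomycin, by 0.34 ± 0.11 and 0.24 ± 0.06, and were not called in the other groups. The casein kinase genes Csnk1a1 and Csnk1e rose with oligomycin (0.38 and 0.23, and 0.35 and 0.48), and with 10 mM 2-DG Csnk1a1 rose (0.15) while Csnk1e fell at both 2-DG doses (-0.27 and -0.31). Of the Dishevelled genes, which relay the receptor signal, Dvl1 rose with oligomycin (0.37 and 0.60) and Dvl2 fell with 10 nM (-0.73). Tnks2, a tankyrase that destabilizes Axin, fell with oligomycin (-0.21 and -0.61). Among nuclear cofactors 2 of 11 rose and 2 fell with 1 nM, 2 and 3 with 10 nM, 4 and 2 with 5 mM and 3 and 2 with 10 mM. The co-repressor gene Tle4 fell by 1.11 and 1.67 with oligomycin and rose by 0.17 with 5 mM 2-DG, each ± 0.06. Its relative Tle3 rose with 1 nM (0.29), fell with 10 nM (-0.23) and rose with 2-DG (0.22 and 0.31), and Tle1 rose with 2-DG (0.24 and 0.32). Bcl9l, a co-activator that binds beta-catenin, rose in all 4 groups (0.45, 0.88, 0.41 and 0.59, each ± 0.10), and the Mediator kinase gene Cdk8 fell in all 4 (-0.21, -0.33, -0.23 and -0.32, each ± 0.05). Ctnnbip1, an inhibitor of beta-catenin, fell with 2-DG (-0.47 and -0.39), and Pygo1, a co-activator, rose with 10 nM (0.42). Tcf7l2, the remaining TCF/LEF gene, was at 1.92 ± 0.23 FPKM in mock and was not called in any treated group (changes of 0.02 to 0.16, each ± 0.07, adjusted p from 0.076 to 0.81).

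**Figure D4:**
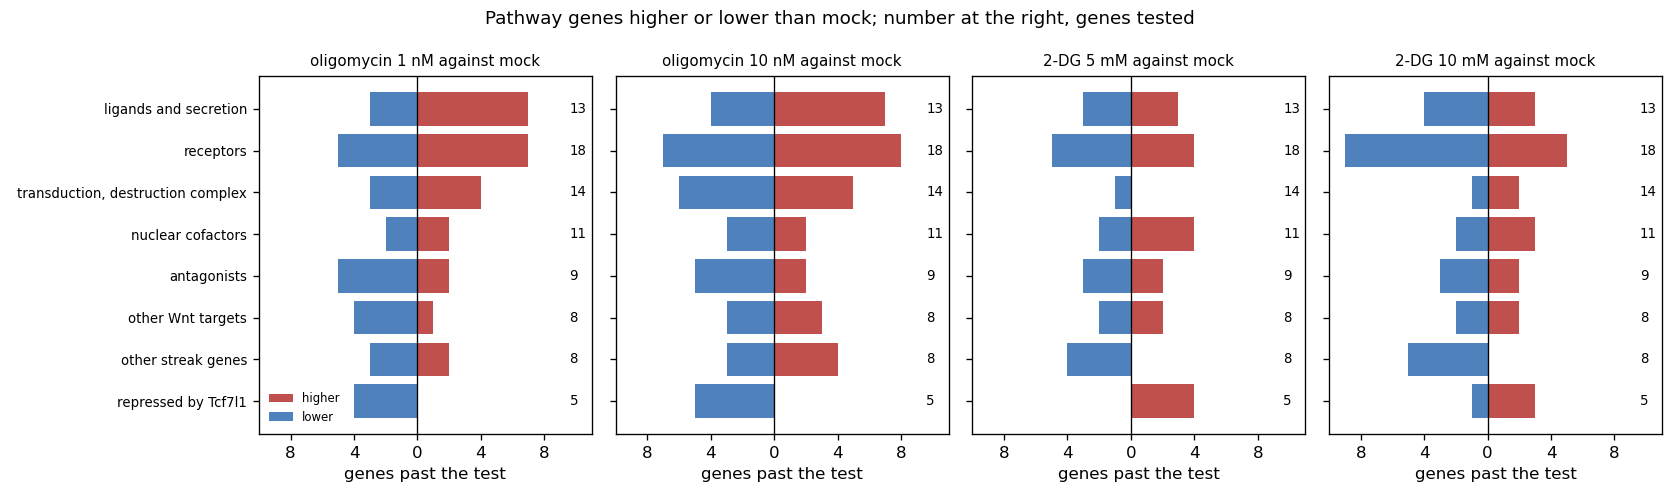
Number of genes (horizontal axis) called higher (right) or lower (left) than mock in 8 lists of Wnt pathway and streak genes without the 10 members, 1 panel for each treated group, with the number tested at the right. Most lists held genes in both directions, while 4 and 5 of the 5 genes known as repressed by Tcf7l1 were lower with oligomycin, 4 were higher with 5 mM 2-DG, and 3 were higher and 1 lower with 10 mM. The shares among all tested genes are given in the text.

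Secreted or membrane antagonists also split, with 2 of 9 higher and 5 lower at each oligomycin dose and 2 and 3 at each 2-DG dose. Notum, an enzyme that inactivates Wnt proteins and a known feedback target, fell from 1.9 ± 0.173 to 0.424 ± 0.0529 and 0.453 ± 0.149 FPKM with oligomycin and rose to 3.41 ± 0.326 and 2.62 ± 0.32 with 2-DG, all 4 changes being called. Sfrp1, a secreted Wnt-binding protein gene, fell by 0.43 and 1.82 with oligomycin and rose by 0.81 and 0.60 with 2-DG, each ± 0.08. Its relative Sfrp2 fell with both agents, by 0.84 and 1.39 with oligomycin and by 0.66 and 0.92 with 2-DG, each ± 0.09. Dkk3, a divergent Dickkopf gene, went the other way from Sfrp1, as it rose by 0.66 and 0.78 and fell by 0.39 and 0.45, each ± 0.05. Of 8 other target genes that were tested, 1 rose and 4 fell with 1 nM, 3 and 3 with 10 nM and 2 and 2 at each 2-DG dose. The listed targets Cdx2, Cdx4 and Cyp26a1 were too low to test, at means of 0.529, 0.915 and 0.681 FPKM in mock. Their samples lay wholly below mock in each of the 4 treated groups, beside the shares of all tested genes wholly below mock given above. Myc, which encodes a transcription factor of cell growth and is a Wnt target in several tissues, fell with 1 nM (-0.23 ± 0.07), rose with 10 nM (0.53 ± 0.07) and fell with 5 mM (-0.28 ± 0.07). Ascl2, a factor of Wnt-driven stem cells in the intestine, fell with oligomycin (-0.31 and -0.57, each ± 0.12). The feedback inhibitor genes Nkd1 and Nkd2 fell with 10 mM 2-DG (-0.32 and -0.44), while Nkd2 also fell with 5 mM (-0.33) and Nkd1 rose with oligomycin (0.26 and 0.46). Sp8, a relative of Sp5, fell with oligomycin (-0.22 and -0.36) and rose with 2-DG (0.29 and 0.30), each ± 0.07.

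Of 8 further streak and mesendoderm genes, 2 rose and 3 fell with 1 nM oligomycin, 4 and 3 with 10 nM, and 4 and 5 fell with 5 and 10 mM 2-DG. Nodal, the ligand that acts with Wnt3 in the streak, fell from 36.5 ± 2.5 FPKM to 23.1 ± 0.731 and 16.2 ± 1.32 with oligomycin and to 28.5 ± 1.26 and 25.7 ± 1.29 with 2-DG. Tdgf1, its co-receptor, fell from 366 ± 5.67 to 164 ± 7.64, 85.2 ± 6.26, 174 ± 9.61 and 146 ± 3.76 FPKM in the same order. Hand1, a factor of lateral and extraembryonic mesoderm, fell by 0.61 and 0.71, each ± 0.11, with 2-DG and did not pass with oligomycin (adjusted p = 0.22 and 0.99). Fgf4, a growth factor of these cells, fell by 0.29 and 1.46 with oligomycin, each ± 0.06. Snai1, a repressor of epithelial genes, rose with oligomycin (0.58 and 1.01, each ± 0.17), and Mesp2, a mesoderm factor at 0.748 FPKM in mock, rose with oligomycin (0.55 and 0.26) and fell with 2-DG (-0.36 and -0.34), each ± 0.09. Since its mean was under 1 FPKM in mock and lower with 2-DG, Mesp2 passed the filter mainly through oligomycin samples. Its higher values there were partly built in.

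The 5 genes listed as repressed by Tcf7l1 in mouse embryonic stem cells, Nanog, Esrrb, Klf2, Nr5a2 and Tfcp2l1, are all pluripotency genes. With oligomycin, where Tcf7l1 fell, 4 and 5 of them fell, beside 33.2% and 41.7% of all tested genes and beside 7 and 8 of the 8 stem cell markers. Nanog, Esrrb and Tfcp2l1 are also among those markers, so the counts overlap, and the part of those markers in the count of repressed genes was not tested. With 5 mM 2-DG, where Tcf7l1 rose, 4 rose, beside 15.0% of all genes, and with 10 mM 3 rose and Nanog fell, beside 21.4% higher and 26.8% lower. Of the 8 stem cell markers 2 rose and 1 fell with 5 mM, and 1 rose and 3 fell with 10 mM. Klf2, a factor of naive pluripotency, fell by 0.67 ± 0.14 and 1.25 ± 0.14 with oligomycin and rose by 0.98 ± 0.14 and 0.78 ± 0.14 with 2-DG, and Nr5a2, a nuclear receptor, fell by 0.95 and 1.99 and rose by 0.57 and 0.66, each ± 0.05. Esrrb fell by 0.27 and 1.78 with oligomycin and rose by 0.13 with 5 mM 2-DG, each ± 0.04. Tfcp2l1 fell by 1.26 with 10 nM and rose by 0.58 and 0.55 with 2-DG, each ± 0.08. Nanog fell by 0.70 and 1.79 with oligomycin and by 0.23 with 10 mM 2-DG, each ± 0.07.

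Summed marker levels of several cell types also differed between the oligomycin groups and mock. The summed level of 8 stem cell genes was 1340 to 1460 FPKM in mock, 811 to 898 with 1 nM and 297 to 400 with 10 nM, and that of 14 fibroblast genes was 1630 to 1650, 3960 to 4030 and 5510 to 5590, with 13 of the 14 called higher at each dose. Pou5f1 stood at 0.545 and 0.247 times mock with oligomycin, beside 0.598 and 0.395 times for Tcf7 and 0.371 and 0.302 times for Eomes. With 2-DG both sums changed less. They were 1260 to 1340 and 1170 to 1200 FPKM for stem cell genes and 1380 to 1500 and 1590 to 1710 for fibroblast genes, and Pou5f1 was at 1.01 and 0.895 times mock while Tcf7 was at 0.503 and 0.391 times. A sum of 11 macrophage genes was 155 to 171 FPKM in mock, 166 to 212 and 192 to 205 with oligomycin, and 85.2 to 87.8 and 79 to 80.6 with 2-DG. Of the 10 tested macrophage genes 4 rose and 2 fell with 1 nM, and 6 and 2 with 10 nM. With 5 mM 2-DG 1 rose and 6 fell, and with 10 mM 1 and 5. Sums of 8 primitive endoderm genes were 15 to 16.1 FPKM in mock, 19.2 to 21.2 and 22.8 to 25.2 with 1 and 10 nM oligomycin, and 13.7 to 14.4 and 15.8 to 16.3 with 5 and 10 mM 2-DG. The sums of 8 neuroectoderm genes were 33.4 to 33.9 in mock, 44.3 to 71.6 with oligomycin and 22 to 24 with 2-DG. These genes did not move together: of the 5 tested, 2 rose and 3 fell at each oligomycin dose. With 5 mM 2-DG 1 rose and 3 fell, and with 10 mM 2 rose and 3 fell, beside the shares of all genes given above. Sox1 was at 2.65 ± 0.143 FPKM in mock, 0.814 ± 0.0785 and 0.27 ± 0.0916 with oligomycin, and 1.11 ± 0.136 and 0.79 ± 0.176 with 2-DG. None of the defining markers listed, Csf1r, Gata4, Gata6 and Sox1 included, was at 0 in any group mean. The part of these markers in the members' changes was not tested.

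Genes with the closest pattern to a member were found by the root mean square difference of the 4 changes from mock, among tested protein-coding genes whose mean reached 5 FPKM in some group. For Tcf7 these were Pdk1 (difference 0.12 on the log2 scale), a kinase of pyruvate dehydrogenase, and Mnd1 (0.13), a meiotic recombination gene. Tcf7l1 was closest to Rhot2 (0.035), which encodes a mitochondrial GTPase, and Fzr1 (0.045), an activator of the anaphase-promoting complex. Sp5 was closest to Adat1 (0.032) and Top1 (0.041), and Eomes to Nxt1 (0.086) and Gpatch4 (0.089). Lef1 was closest to Hes6 (0.093) and Stard4 (0.11), Axin2 to Col18a1 and Usp14 (0.047 each), Fgf8 to Scd1 and Pdk1 (0.1 each), and Cdx1, the member with the least close neighbours, to Cbs (0.13) and Nphs1 (0.2). These differences use log2(FPKM + 1), which understates falls of members near or under 1 FPKM more than those of higher genes. A close value for a low member such as Fgf8 or Lef1 therefore does not mean a fall of like size. In the reads test Fgf8 changed by -2.75, -3.91, -2.54 and -3.02, while Scd1 was at -0.99, -1.1, -0.81 and -1.09 on the log2(FPKM + 1) scale.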

How the data were processed

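RNA of 15 samples in 5 groups of 3 was analysed. The authors deposited 1 table of FPKM values per gene and sample. Per the submitters' processing notes, HISAT2 2.1.0, Bowtie2 2.2.3, HTSeq 0.6.0 and the build GRCm38 were used, with no role given for each. Spreadsheet dates in 26 symbols were restored from identifiers, and 1 line without a gene was left out.

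The 13284 genes that reached 1 FPKM in 3 or more samples (18868 were left out) were fitted as log2(FPKM + 1) with limma 3.58.1 in R 4.3.3, with 1 mean per group, a variance trend, two-sided tests and Benjamini-Hochberg adjustment over all tested genes at 0.05. In all, 7 comparisons were planned and 3 pairs of groups were added. FPKM values stepped in whole reads: among values of 20 reads or fewer, 99.2% to 99.5% per sample were whole to within 0.05, where chance gives 10%, with exon lengths from GENCODE M21. Intervals on reads cover counting error only, since reads are not independent molecules. Alternatives were other pseudocounts, filters and scalings, fewer groups, a replicate block, each sample left out, and voom on reads (added after seeing the data). Python 3.11.15, numpy 2.4.6, pandas 2.3.3 and matplotlib 3.10.9 were also used.

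The 10 genes, the lists and the tests were chosen with earlier results of these data known. Outside the 10, the text names 7 fixed pathway genes, the 3 largest called changes of each list in each comparison with mock, and defining markers. It also names genes on the opposite strand that share exon bases with a member, and Cdx2, Cdx4 and Cyp26a1, listed targets too low to test. For likeness it names the 2 closest genes of each tested member.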

Additional observations from a re-analysis of the deposited data

How the results depend on the processing

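Replicate numbers did not pair the samples: deviations of samples with the same number correlated by -0.24 to 0.37, with 3 of 30 pairs over 0.1. With a replicate block the genes called against mock were 8238, 10023, 4463 and 6218, and 5972, 597 and 9333 in the other comparisons, and it changed no count of members called. Each of 56 member changes was recomputed under up to 24 alternatives, and 1236 values kept their direction and side of the threshold, 43 were no longer called, 12 became called and 11 changed sign, none of these 11 a called change. With at least 5 FPKM required, only Tcf7 and Tcf7l1 could be tested, and 2, 2, 2 and 1 members were called against mock and 1 between 10 mM 2-DG and 10 nM oligomycin. In that last comparison the fit of the compared groups alone called 3, and leaving out 1 sample gave 3 to 6 (3 without 10 nM replicate 2). The reads test called 2 members between the 2-DG doses. Leaving out 1 sample moved the genes called between the 2-DG doses from 779 to 273 to 1467, the highest without replicate 1 of 10 nM oligomycin, the library that stood apart. Without that library 8 members were still called at 10 nM against mock, 2 between the oligomycin doses and 5 between agents. Sign changes among uncalled values were Eomes at 0.04 and Fgf8 at 0.10 (10 against 1 nM) and Fgf8 at -0.09 (10 mM 2-DG against 10 nM) under quantile normalization. The others came from leaving out 1 sample: Eomes from 0.00 to 0.05 (10 mM against mock), Sp5 from -0.03 to 0.09 and Cdx1 from -0.08 to 0.04 (10 against 5 mM), and Tcf7 from -0.04 to 0.05 (10 mM against 10 nM). The cause of these differences was not tested. Depth limits Fgf8, T and Mixl1 most, at 1 to 68 reads per sample.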
